A study of Mus musculus with 4 samples.

Results

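In cultures of de-differentiated fat cells and of stromal vascular cells from mouse white fat, the 1% of cells with the largest share of RNA from 6 stress-linked genes were examined. The genes were *Il11*, *Stc1*, *Gem*, *Atf3*, *Hspa1a* and *Hspa1b*, and the cells were chosen by their UMI counts of these genes, separately in each of 4 droplet-based single-cell RNA libraries. A barcode was kept as a cell with 5000 to 75000 unique molecular identifiers (UMIs, the tags that count captured RNA molecules), 200 to 7500 genes and under 10% mitochondrial UMIs. The kept cells of a library were ranked by the UMIs of the 6 genes divided by all UMIs of the cell. The top 1% (the members) numbered 282 of 28262 kept cells, with 76 of 7629 in the iWAT_DFAT library, 65 of 6464 in eWAT_DFAT, 74 of 7424 in iWAT_SVF and 67 of 6745 in eWAT_SVF. They were compared with the lower 50% of the same library by the same ratio, which held 3814, 3232, 3712 and 3372 cells.

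The DFAT libraries hold de-differentiated fat cells, which grow out when floating adipocytes are kept in ceiling culture until they flatten and lose their lipid. The SVF libraries hold the pelleted stromal vascular fraction, labelled as cultured SVF cells. Both were taken from inguinal (iWAT) and epididymal (eWAT) white fat of chow-fed male C57BL/6J mice, with no transgene and no drug in any group. All cells were detached with trypsin and sorted with the dead-cell dye 7-AAD before loading, and the number of pooled animals is not given in the sources used here. With 1 library per condition there was no replicate error, so no test across samples was made and the intervals below cover counting error only.

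The 6 genes belong to several stress programmes. *Il11* encodes a secreted cytokine of the IL-6 family that signals through GP130 and is induced by TGF-beta and by injury in fibroblasts. *Atf3* encodes a bZIP transcription factor of the early stress response, and *Gem* a small RGK-family GTPase that binds calcium channel beta subunits. *Stc1* encodes stanniocalcin, a secreted glycoprotein hormone linked to hypoxia and calcium. *Hspa1a* and *Hspa1b* encode the inducible HSP70 chaperones, whose promoters are bound by heat shock factor after heat or misfolded protein. Several of them are known to be induced in stromal cells of adipose tissue when the tissue is digested or the cells are detached.

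Promoter sequences of 5 genes are shown first because these genes carry different classical stress elements near their starts. RefSeq promoter windows (GRCm38.p6) were found for 4 of the 6 genes and for 8 of the 12 genes that lead the DFAT comparison below. Each run is the 250 bases before a listed start, 5′ to 3′ on the strand of the gene, with matches to the searched elements in capitals. The *Il11* window at chr7:4778142-4778391, on the minus strand, holds an AP-1 element, TGAGTCA, whose first base lies 98 bases before the start. The *Hspa1a* window at chr17:34972157-34972406 and the *Hspa1b* window at chr17:34959239-34959488, both on the minus strand, hold the heat shock unit GAAGATTC at 104 bases. The *Areg* window at chr5:91139349-91139598, on the plus strand, holds the cyclic AMP response element TGACGTCA at 61 bases and a TATA box at 31. The *Nupr1* window at chr7:126625471-126625720, on the minus strand, holds ATTGCATCA, a composite C/EBP-ATF element, at 111 bases.
Il11: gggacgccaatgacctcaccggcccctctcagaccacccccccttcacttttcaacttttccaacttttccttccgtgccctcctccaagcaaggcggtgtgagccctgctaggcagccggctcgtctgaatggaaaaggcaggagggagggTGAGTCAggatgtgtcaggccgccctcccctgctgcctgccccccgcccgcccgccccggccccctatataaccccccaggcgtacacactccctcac
Hspa1a: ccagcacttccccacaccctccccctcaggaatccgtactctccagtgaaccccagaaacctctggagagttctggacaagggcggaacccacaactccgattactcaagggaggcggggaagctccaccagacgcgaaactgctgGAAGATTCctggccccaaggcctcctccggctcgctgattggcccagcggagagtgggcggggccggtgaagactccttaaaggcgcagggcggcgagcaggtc
Hspa1b: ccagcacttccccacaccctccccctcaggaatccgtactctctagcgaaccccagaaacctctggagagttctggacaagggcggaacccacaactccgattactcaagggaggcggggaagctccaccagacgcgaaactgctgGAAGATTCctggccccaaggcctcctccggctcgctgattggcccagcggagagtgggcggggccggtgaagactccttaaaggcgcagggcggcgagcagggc
Areg: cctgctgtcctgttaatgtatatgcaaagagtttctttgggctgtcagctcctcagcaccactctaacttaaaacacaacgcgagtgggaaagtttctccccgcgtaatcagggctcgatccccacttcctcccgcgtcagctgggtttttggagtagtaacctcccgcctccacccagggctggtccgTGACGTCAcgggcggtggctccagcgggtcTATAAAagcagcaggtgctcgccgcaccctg
Nupr1: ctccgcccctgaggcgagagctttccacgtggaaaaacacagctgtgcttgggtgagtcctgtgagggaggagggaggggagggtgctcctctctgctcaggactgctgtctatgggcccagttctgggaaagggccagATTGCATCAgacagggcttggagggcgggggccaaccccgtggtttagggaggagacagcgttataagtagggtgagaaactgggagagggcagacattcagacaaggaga
The *Hspa1a* and *Hspa1b* windows were identical at 247 of 250 bases. Both strands were searched. Over the same 250 bases of all 32851 promoters of the table, the AP-1 element TGANTCA was present in 6.75%, a heat shock unit (GAANNTTC or TTCNNGAA) in 12.8%, the cyclic AMP element in 1.55%, the C/EBP-ATF element TGATGNAAT in 0.816% and TATAAA in 12.4%. At least 2 heat shock units were present in 1.46%. The *Atf3* window and the other listed start of *Il11* held none of these letters, and among the DFAT genes *Igfbp5* and *Pde10a* held a heat shock unit as well. The windows of the DFAT genes *Hspa4l*, *Fzd5*, *Atp1b1* and *Cacnb2* held none of them. These are matches of letters and not measured binding sites.

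The values of the rule itself describe how far the members stand out, and they differed between the kinds of culture. The median member held 1554 counts per 1000000 UMIs (CPM) of the 6 genes together in iWAT_DFAT, 3283 in eWAT_DFAT, 396.8 in iWAT_SVF and 324.2 in eWAT_SVF. In UMIs this was a median of 33, 69, 6 and 5 per member. The last member inside and the first cell outside stood at 900.8 and 867.8 CPM in iWAT_DFAT, at 1981 and 1948 in eWAT_DFAT, at 256.1 and 256.1 in iWAT_SVF and at 249.2 and 248.9 in eWAT_SVF. No gap in the values separated members from the next cells. Among all kept cells, 1089, 2620, 3991 and 3010 had no UMI of the 6 genes, so the lower 50% of iWAT_SVF was at 0 throughout.

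The number of the 6 genes found in a member differed between the kinds of culture, and since these genes chose the cells this describes the members and checks no label. At least 3 of the 6 genes had a UMI in 63 of 76 iWAT_DFAT and 57 of 65 eWAT_DFAT members, and all 6 in 15 and 37. In iWAT_SVF 10 of 74 members reached 3 genes and 35 had a single one, and in eWAT_SVF these counts were 23 and 19 of 67. Among all kept cells, 23.8% of iWAT_DFAT, 7.43% of eWAT_DFAT, 2.5% of iWAT_SVF and 4.52% of eWAT_SVF cells reached 3 genes. Members were 3.47% of the 1816 such cells of iWAT_DFAT and 11.9% of the 480 of eWAT_DFAT. Most cells with 3 or more of the genes were thus not members. A single threshold for all libraries, the top 283 cells of the 28262, would take 95 cells from iWAT_DFAT, 170 from eWAT_DFAT, 14 from iWAT_SVF and 4 from eWAT_SVF. The SVF members are called by their rule below and not as one kind of cell.

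*Il11*, the cytokine, had the highest summed level of the 6 genes in the DFAT members. Its level was 948.8 CPM in iWAT_DFAT members (95% Poisson interval 900.2 to 999.4) against 2.29 in the lower 50%, and 1554 (1488 to 1622) against 1.161 in eWAT_DFAT. In the SVF members it was 128.9 CPM (108.8 to 151.7) in iWAT_SVF and 54.65 (42.52 to 69.17) in eWAT_SVF, where 1 cell gave 46.9% and 53.6% of the UMIs. In iWAT_DFAT and eWAT_DFAT 1 cell gave 19.1% and 10.1%. At least 1 *Il11* UMI was found in 65.8% and 87.7% of the DFAT members and in 10.8% and 14.9% of the SVF members. Of all kept cells, 7.92% in iWAT_DFAT and 19.1% in eWAT_DFAT held one. The lower 50% is low in *Il11* by the rule. Cells ranked from 90 to 99% by the 6-gene share held 30.11 CPM of *Il11* in iWAT_DFAT and 369.3 in eWAT_DFAT. *Gem* was found in more members, 93.4% and 90.8% in the DFAT libraries. Its median was 7 UMIs per iWAT_DFAT member beside 5 of *Il11*, and 10 per eWAT_DFAT member beside 18 of *Il11*. Droplets with at most 100 UMIs, which carry free RNA, held 12.01, 49.68, 4.06 and 1.97 CPM of *Il11*.

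*Atf3*, the early stress factor, showed another order of levels. It stood at 154.5 CPM (135.2 to 175.7) in iWAT_DFAT members, 337.7 (307.5 to 370.2) in eWAT_DFAT, 239.1 (211.4 to 269.4) in iWAT_SVF and 156.8 (135.7 to 180.3) in eWAT_SVF. The intervals of iWAT_DFAT and eWAT_SVF overlapped, and all of them cover counting error only. In eWAT_SVF 1 cell gave 41.9% of the *Atf3* UMIs. The lower 50% of cells held 8.987, 0.6682, 0 and 0.5251 CPM.

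The secreted hormone gene *Stc1* and the GTPase gene *Gem* had their larger values in DFAT members. *Stc1* was at 416.2 and 416.1 CPM in iWAT_DFAT and eWAT_DFAT members and at 91.55 and 91.88 in iWAT_SVF and eWAT_SVF. *Gem* was at 423.5, 679.2, 31.11 and 36.43 CPM in the same order. With 1 library per condition these levels do not test a difference between the cultures. The HSP70 genes *Hspa1a* and *Hspa1b* are near-identical copies whose reads can be shared, so their sum is the safer value. It was 328.3 and 521 CPM in the DFAT members and 84.44 and 93.46 in the SVF members, against 9.758, 2.311, 0 and 2.374 in the lower 50%. Free RNA held 40.16, 26.59, 26.61 and 50.15 CPM of the pair in iWAT_DFAT, eWAT_DFAT, iWAT_SVF and eWAT_SVF, so the sums of the SVF members lay nearer to that level than those of the DFAT members. These sums are raised by the choice of cells on the same UMIs, and levels in UMIs not used for the choice are given below.

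**Figure D1:**
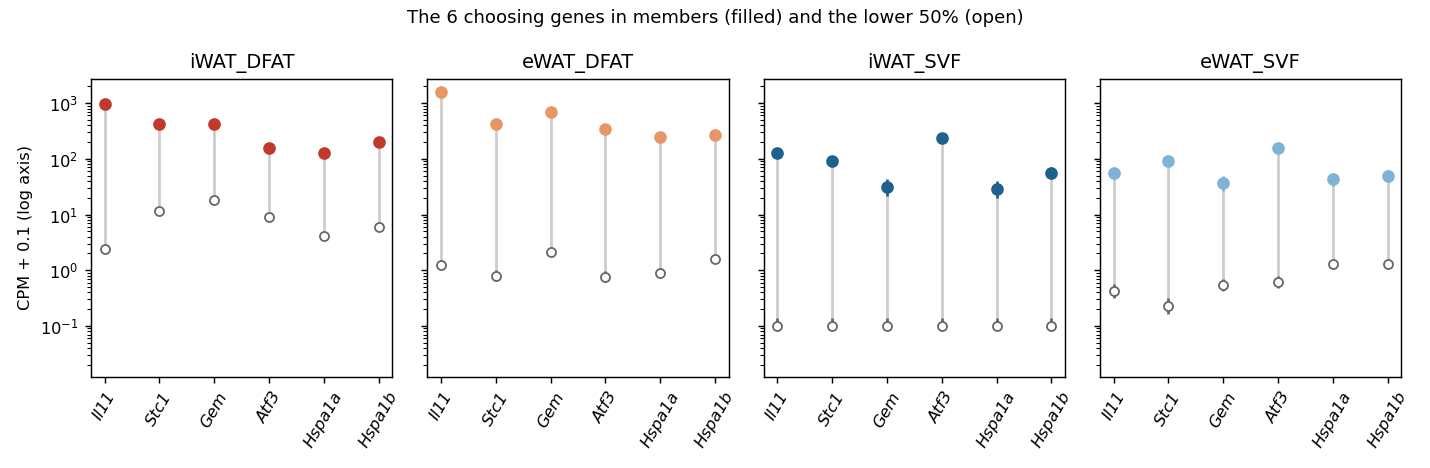
Levels of the 6 genes in CPM plus 0.1 (log axis) in members (filled points) and in the lower 50% of cells (open points), 1 panel per library, with exact 95% Poisson intervals as short dark bars. Grey lines join the points of a gene. *Il11* in DFAT members reaches 948.8 and 1554 CPM, while in the SVF members *Atf3* has the highest of the 6 values.

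The make-up of the members by gene differed in the same way. *Il11* took 41.8% and 44.3% of the 6-gene UMIs in iWAT_DFAT and eWAT_DFAT members, against 22.4% and 12.6% in iWAT_SVF and eWAT_SVF. *Atf3* took 6.80% and 9.63% in the DFAT members and 41.6% and 36.2% in the SVF members. By the gene with the most UMIs in a cell, iWAT_DFAT members were led by *Gem* in 24 cells, by *Il11* in 21 and by *Stc1* in 21, and eWAT_DFAT members by *Il11* in 34 and by *Gem* in 13. *Atf3* led 43 of 74 iWAT_SVF and 22 of 67 eWAT_SVF members. These are shares of UMIs, and gene length does not enter them beyond the capture of 3′ ends and introns.

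Choosing cells on their highest values inflates those values, and this was measured by choosing members on a random 50% of each cell's UMIs and reading the other 50%. The 6-gene level in the second set of UMIs was 95.04% of that in the first in iWAT_DFAT, 98.97% in eWAT_DFAT, 67.2% in iWAT_SVF and 54.1% in eWAT_SVF. The cells chosen this way included 65 of the 76 members in iWAT_DFAT, 60 of 65 in eWAT_DFAT, 46 of 74 in iWAT_SVF and 29 of 67 in eWAT_SVF. With fewer UMIs per cell, this choice is also noisier than the main one. In the SVF libraries *Hspa1a* and *Hspa1b* fared least well, at 39.9% and 21.2% in iWAT_SVF and 28.4% and 26.7% in eWAT_SVF. Their levels in the second set of UMIs were 11.35 and 13.24 CPM in iWAT_SVF and 18.97 and 17.39 in eWAT_SVF. Free RNA held 6.304 and 20.31 CPM of them in iWAT_SVF and 14.51 and 35.64 in eWAT_SVF. In the SVF members the level of the HSP70 genes thus did not stand clear of free RNA. The overlap of cells high in the HSP70 genes with cells high in the other 4 genes was larger in the DFAT libraries. These genes chose the members, so the overlap is a description. Unrelated choices would share about 1% of their cells. With a median of 6 and 5 UMIs of the 6 genes per iWAT_SVF and eWAT_SVF member, little overlap could be seen there. The top 1% by *Hspa1a* and *Hspa1b* shared 34.2% and 61.5% of its cells with the top 1% by the other 4 genes in iWAT_DFAT and eWAT_DFAT, and 1.35% and 5.97% in iWAT_SVF and eWAT_SVF.

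The members were next checked for stromal and other cell types, with a cell counted for a list at 3 or more of its markers. Markers of adipose stem and progenitor cells were met by 98.7% and 96.9% of the DFAT members and by 89.2% and 89.6% of the SVF members. In the lower 50% the share was 99.2% and 92.0% in the DFAT and 96.3% and 95.5% in the SVF libraries. Markers of another type were met by 2 of 76 iWAT_DFAT and 5 of 65 eWAT_DFAT members. In the SVF libraries they were met by 45 of 74 iWAT_SVF and 34 of 67 eWAT_SVF members. The lower 50% met them in 1.97% of iWAT_DFAT, 12.4% of eWAT_DFAT, 4.50% of iWAT_SVF and 21.1% of eWAT_SVF cells. The eWAT_DFAT share of members was thus below that of the lower 50%. The pericyte list was met by 5 eWAT_DFAT members (7.69%) and by 3.56% of the lower 50%. Its 7 markers summed to 86.46 CPM against 109.5. In the DFAT members the mesothelial markers *Msln*, *Upk3b* and *Krt8*, the Schwann markers *Cdh19* and *Foxd3* and the immune markers *Tyrobp* and *Fcer1g* had no UMI. The summed level of the 7 Schwann markers was 1.998 and 2.217 CPM, that of the 7 mesothelial markers 12.65 and 4.434, and that of the 8 immune markers 18.64 and 19.21. The 8 endothelial markers summed to 93.22 CPM in iWAT_DFAT members against 18.23 in the lower 50%, with 1 member meeting 3 of them, and to 16.26 against 24.77 in eWAT_DFAT. Adipocyte markers, led by *Fabp4*, summed to 123.8 CPM in iWAT_DFAT and 2024 in eWAT_DFAT members, below the 374.1 and 2587 of the lower 50%, and *Lep* had no UMI.

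In iWAT_SVF the most common other type was the Schwann cell, the glial cell of peripheral nerves. Schwann markers were met by 34 members (45.9%) and by 1.16% of the lower 50%, and still by 44.6% and 1.13% when each cell was thinned to 5000 UMIs. Their 7 markers summed to 997.3 CPM in members against 26.26, with *Sox10* at 72.89 CPM and *Cdh19* at 375.1. The members were 23.1% of all 147 kept cells of that library that met the Schwann list. In those 34 cells *Atf3* reached 557 CPM, beside 132 CPM over the 147, while *Il11* was at 2.83. A further 7 members met the endothelial and 4 the pericyte list.

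In eWAT_SVF 15 members (22.4%) met the mesothelial list, 9 the pericyte, 8 the endothelial, 2 the immune and 1 the adipocyte list. The lower 50% met the mesothelial list in 7.50% of cells and the pericyte list in 11.4%, beside 13.4% of members. With each cell thinned to 5000 UMIs the pericyte list was met by 2.99% of members and 1.25% of the lower 50%, and its 7 markers summed to 897.4 against 442.1 CPM. The mesothelial members held 542 CPM of *Atf3* and 4.71 of *Il11*, and the endothelial members 311 and 0. Of the 198 *Atf3* UMIs of all eWAT_SVF members, 83 came from 1 cell. By the levels of the groups that cell was among the mesothelial members, so their 542 CPM leans on 1 cell. The endothelial members held 24 of the 198 UMIs. Members without 3 markers of another type, 29 in iWAT_SVF and 33 in eWAT_SVF, held 51.81 and 56.13 CPM of *Atf3*. In the DFAT libraries the same step changed little, with *Il11* at 973 and 1557 CPM in the 74 and 60 members left. The part of these other cell types in the results of the SVF members was not tested.

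**Figure D2:**
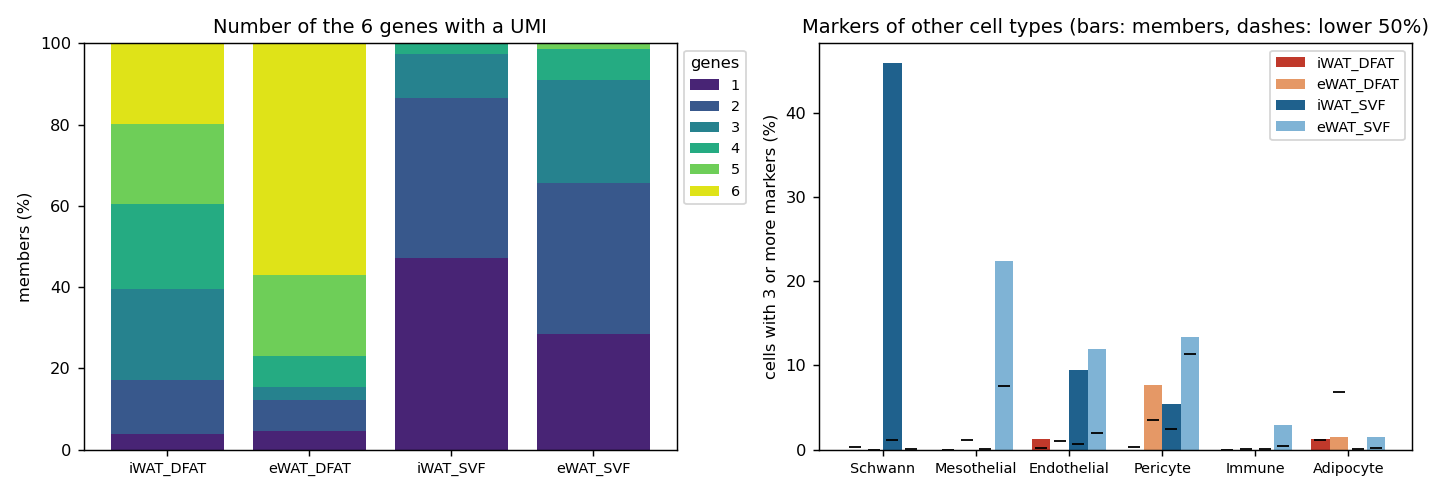
Left, share of members (percent) by the number of the 6 genes with a UMI, stacked from 1 to 6 genes, in each library. Right, share of cells (percent) with at least 3 markers of another cell type in members (bars) and in the lower 50% (dashes), with the iWAT_SVF Schwann bar at 45.9% and the eWAT_SVF mesothelial bar at 22.4%.

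Signs of cell quality moved with the choice as well. Members had fewer UMIs than the lower 50%, with medians of 17816 against 22458 in iWAT_DFAT, 19023 against 27736 in eWAT_DFAT, 13667 against 22696 in iWAT_SVF and 18041 against 26251 in eWAT_SVF. The nuclear RNA *Malat1* made up a median of 1.57% of a member's UMIs against 0.642%, 2.15% against 0.503%, 1.07% against 0.534% and 0.649% against 0.403%. Mitochondrial shares were lower in the DFAT members (2.68% against 3.05% and 1.85% against 1.91%) and higher in the SVF members (2.91% against 2.19% and 2.56% against 2.25%). A rank-based cell call would drop 0, 3, 19 and 15 members. Pairs of libraries shared 13 to 20 kept barcodes, none of them among members, and the files held 211396227 to 242282812 UMIs each. The part of depth and RNA quality in the results below was not tested beyond the matched values given.

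Beyond the 6 genes, 10027 genes with at least 5 CPM over all kept cells were compared, on the scale of log2(CPM + 1), members over the lower 50%. Adding 1 CPM understates the ratio of genes at low levels. A gene was called at a ratio of 2-fold or more (a log2 ratio of 1) in each library named, which is a rule of size and not a test. In all 4 libraries 26 genes were called higher (0.259% of those compared) and 55 lower (0.549%). In both DFAT libraries 314 were higher (3.13%) and 396 lower (3.95%), and in both SVF libraries 167 were higher (1.67%) and 83 lower (0.828%). Since these genes were read in the cells that the rule chose, the counts are a description. They also depend on the choice of cells. The count lower in all 4 libraries was 4 when the score was cut to *Il11*, *Stc1*, *Gem* and *Atf3*, 13 for the top 2% and 22 beside UMI-matched cells, and the count lower in both DFAT libraries was 40 for the top 2% and 1234 for the top 0.5%. The median gene was at a log2 ratio of −0.18 in iWAT_DFAT, −0.36 in eWAT_DFAT, 0.11 in iWAT_SVF and 0.10 in eWAT_SVF. Relative to that median, the DFAT split turned from more lower calls to 476 higher and 162 lower. The 26 genes were 8.28% of those higher in DFAT and 15.6% of those higher in SVF members, and the 55 were 13.9% and 66.3% of those lower.

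The genes with the largest DFAT increase, taken in the library where it was smaller, were *Akr1b3* and *Hspa4l*, both at a log2 ratio of 4.64 there. *Akr1b3* encodes aldose reductase, the enzyme that turns glucose into sorbitol. *Akr1b3* stood at 2185 CPM (2111 to 2261) in iWAT_DFAT members against 86.85 in the lower 50%, and at 4374 (4263 to 4487) against 79.12 in eWAT_DFAT. In iWAT_SVF and eWAT_SVF it was at 68.44 against 81.6 and at 122 against 94.07. The log2 ratios were 4.64, 5.77, −0.25 and 0.37. Its UMIs were spread over the members, since 1 cell gave at most 6.55% and 7.47% of them in the DFAT libraries. With each cell thinned to 5000 UMIs, 65.8% and 90.8% of the DFAT members held an *Akr1b3* UMI, against 35.8% and 32.7% of the lower 50%.

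*Hspa4l*, an HSP110-family chaperone that acts with HSP70, followed the same pattern. *Hspa4l* was at 419.5 CPM (387.4 to 453.6) against 15.9 in iWAT_DFAT and at 922.3 (871.8 to 974.9) against 19.25 in eWAT_DFAT. In the SVF libraries it was at 19.55 against 12.76 and at 23.76 against 14.9. The log2 ratios of 4.64 and 5.51 in DFAT members were thus set beside 0.58 and 0.64 in SVF members.

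*Nupr1*, a small stress-induced chromatin protein controlled by ATF4, was at 916.9 CPM (869.1 to 966.6) against 115.5 in iWAT_DFAT and at 2164 (2086 to 2244) against 99.16 in eWAT_DFAT. In iWAT_SVF and eWAT_SVF it was lower in members, at 189.3 against 270.7 and at 283.6 against 344.1. The log2 ratios were 2.98, 4.43, −0.51 and −0.28.

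*Igfbp5*, a secreted protein that binds insulin-like growth factors, was high in the members of every library. *Igfbp5* stood at 261 CPM against 10.25 in iWAT_DFAT, at 598.6 against 1.994 in eWAT_DFAT, at 503.1 against 17.26 in iWAT_SVF and at 58.61 against 1.964 in eWAT_SVF. The log2 ratios were 4.54, 7.65, 4.79 and 4.33. An *Igfbp5* UMI was found in 16 of 76 iWAT_DFAT and 39 of 65 eWAT_DFAT members, and in eWAT_SVF 1 cell gave 37 of the 74 UMIs. In iWAT_SVF the 34 members with Schwann markers held 1089 CPM, close to the 1028 of all kept cells with those markers. With cells of other types removed before the choice, the log2 ratios of *Igfbp5* were 4.66, 7.97, 3.06 and 1.03, and the last of these rests on 3 UMIs in 2 of 52 members. With members chosen by *Hspa1a* and *Hspa1b* alone, the ratio in iWAT_SVF turned to −0.84.

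The other leading DFAT genes have unlike roles. *Areg*, the EGF receptor ligand amphiregulin, was at 98.55 CPM against 3.466 in iWAT_DFAT members and at 201.7 against 18.71 in eWAT_DFAT, and had a single UMI in the members of each SVF library. Of the 21 iWAT_DFAT members led by *Il11*, 23.81% held an *Areg* UMI, so few of those cells carried its level. The Wnt receptor gene *Fzd5* had log2 ratios of 4.11 and 4.53, and *Rspo3*, a secreted enhancer of Wnt signalling, 3.85 and 3.47. *Crem*, a cyclic AMP-responsive bZIP factor, was at 189.1 CPM against 12.62 in iWAT_DFAT and 213.6 against 13.64 in eWAT_DFAT, and the phosphodiesterase gene *Pde10a* had log2 ratios of 3.34 and 3.14. *Atp1b1*, the beta subunit of the sodium pump, had 4.53 and 4.09, *Cacnb2*, a calcium channel beta subunit, 3.49 and 4.14, and the neurofilament gene *Nefm* 3.25 and 3.15. All 12 stayed called in both DFAT libraries under every alternative that tested them, with the score cut to 4 genes or to the HSP70 genes, with UMI-matched cells and without other cell types included. The 4-gene score chose 71 of the 76 iWAT_DFAT and 60 of the 65 eWAT_DFAT members again, and the HSP70 score 30 and 45. The 12 were picked for their large ratios in these same cells, so their staying called is a description and no independent support.

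**Figure D3:**
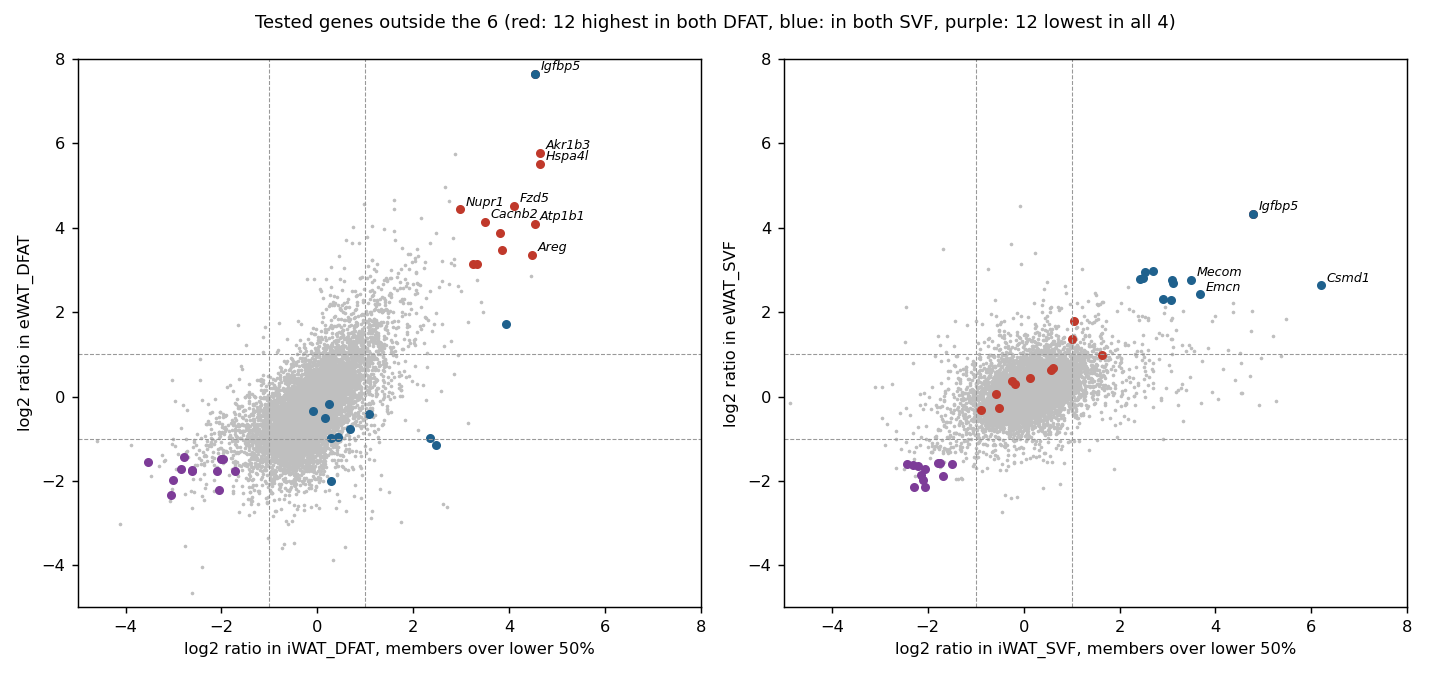
Log2 ratio of members over the lower 50% for 10027 genes (points), in eWAT_DFAT against iWAT_DFAT on the left and in eWAT_SVF against iWAT_SVF on the right, with dashed lines at the 2-fold limits. Red marks the 12 highest genes of both DFAT libraries and blue those of both SVF libraries (*Igfbp5* belongs to both), and purple marks the 12 lowest in all 4. *Igfbp5* is drawn in blue. The red points reach at least 2.98 on the left and lie between −0.90 and 1.78 on the right, while *Igfbp5* stands at 4.79 and 4.33 there.

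Among the 26 genes higher in all 4 libraries, *Igfbp5* was followed by *Procr*, *Cdh13*, *Cd55*, *Fbxo2*, *Elmo1*, *Kdm7a*, *Myo1e*, *Itpkb*, *A330023F24Rik*, *Mmp3* and *Epha2*. *Procr*, the endothelial protein C receptor, was at 296.3 CPM against 27.09 in iWAT_DFAT, 209.1 against 43.23 in eWAT_DFAT, 61.33 against 10.84 in iWAT_SVF and 55.44 against 15.02 in eWAT_SVF. The complement regulator gene *Cd55* had log2 ratios of 3.32, 2.77, 1.70 and 1.59. The matrix metalloproteinase gene *Mmp3* had 1.26, 1.30, 2.21 and 2.08. When cells with 3 markers of another type were removed and the members chosen again, 7 genes (0.0704%) were higher in all 4 libraries (*Fosb*, *Gpm6b*, *Igfbp5*, *Mmp3*, *Ptgs2*, *Serpine2* and *Zswim4*), and 3 of the 26 were among them. Several lay close to the limit of 1. The smallest log2 ratio of a library was 1.012 for *Fosb*, 1.058 for *Gpm6b*, 1.027 for *Igfbp5*, 1.027 for *Ptgs2* and 1.035 for *Zswim4*. *Mmp3* was found in 6 of 52 eWAT_SVF members. In eWAT_SVF the log2 ratio of *Elmo1* then turned from 2.13 to −1.005 and that of *Procr* from 1.82 to −0.34.

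The genes that were lower in all 4 libraries were led by those of cell division. The cyclin gene *Ccna2* was at 5.327 CPM in members against 50.34 in iWAT_DFAT, 11.09 against 46.88 in eWAT_DFAT, 11.55 against 54.71 in iWAT_SVF and 10.3 against 40.3 in eWAT_SVF. *Nusap1*, *Ccnb1*, *Ube2c*, *Kif14*, *Kif20a*, *Ttk*, *Ndc80*, *Sgo2a*, *Trip13*, *Cdca8* and *Dlgap5*, which act in the spindle, the kinetochore and mitotic exit, followed. *Ccnb1* had log2 ratios of −2.61, −1.74, −2.06 and −2.14, and *Nusap1* −2.61, −1.77, −2.29 and −2.15. The members of each library were thus lower in these genes.

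Over the whole list of 20 genes of the G2 and M phases, 17 were lower in both DFAT libraries, beside the 3.95% of all genes. In both SVF libraries 14 were lower, beside 0.828%, and 12 in all 4, beside 0.549%. The median log2 ratio of the list was −2.30, −1.47, −1.82 and −1.27. Against lower-50% cells matched on UMIs it was −2.11, −1.21, −1.55 and −0.82. *Top2a*, the topoisomerase of mitotic chromosomes, was at 35.96 CPM against 175.5 in iWAT_DFAT and at 32.47 against 105.7 in eWAT_SVF. Of 19 S phase genes, 6 were lower in both DFAT libraries and 2, *Mcm2* and *Gins2*, in all 4. Relative to the median gene, 12 G2 and M genes were lower in both DFAT, 17 in both SVF and 10 in all 4 libraries. The S phase counts were then 2, 4 and 0, beside 162, 111 and 45 of all 10027 genes. With the score cut to *Il11*, *Stc1*, *Gem* and *Atf3*, the G2 and M median of eWAT_SVF moved to −0.15. With members chosen by *Hspa1a* and *Hspa1b* alone, the iWAT_SVF ratios of *Kif14*, *Sgo2a* and *Nusap1* turned to 0.37, 0.10 and 0.0016.

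The early response genes, which encode AP-1 subunits and other factors made within minutes of a stimulus, differed in count between the libraries. Of 33, 8 were called higher in both DFAT libraries, beside 3.13% of all genes (*Jund*, *Ier3*, *Nr4a2*, *Nr4a3*, *Klf4*, *Btg1*, *Dusp5* and *Ppp1r15a*) and none was lower. Relative to the median gene 14 were higher, beside 476 of all 10027 genes. The list median was 0.75 in iWAT_DFAT, 1.89 in eWAT_DFAT, 0.42 in iWAT_SVF and 0.77 in eWAT_SVF. In iWAT_DFAT, eWAT_DFAT, iWAT_SVF and eWAT_SVF 10, 29, 6 and 13 of the 33 were 2-fold higher, beside 5.14%, 6.98%, 6.88% and 4.4% of all genes. *Fos* was at 718.5 CPM against 430.3 in iWAT_DFAT and 739 against 44.32 in eWAT_DFAT, and *Fosb* at 316.3 against 160.4 and 324.4 against 12.68. Members of the 2 libraries thus had like levels, and the cells they were compared with differed. In both SVF libraries *Fosb* and *Jun* were called, *Jun* at 360.9 CPM against 61.58 and 236.8 against 63.1. With cells of other types removed before the choice, *Jun* was at 102.4 CPM against 59.04 in iWAT_SVF and 138.8 against 59.27 in eWAT_SVF. Its log2 ratios of 0.78 and 1.21 then no longer met the call in both, while *Fosb* stayed called.

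Of 30 heat shock proteins and chaperones other than *Hspa1a* and *Hspa1b*, 7 were higher in both DFAT libraries, beside 3.13% of all genes, and none in both SVF libraries, beside 1.67%. Beside *Hspa4l* these were *Hsph1*, *Dnajb4*, *Hspb1*, *Hspb8*, *Cryab* and *Hsf2*. *Hsph1*, another HSP110 chaperone, was at 373.5 CPM against 76.39 in iWAT_DFAT and 354 against 68.94 in eWAT_DFAT. The small heat shock gene *Cryab* was at 1175 against 215.8 and at 4528 against 1377. The list median was 0.31, 0.10, −0.08 and −0.08.

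Counts of the other stress lists in DFAT members stand beside the 3.13% of all genes called higher in both DFAT libraries, and those of 1 or 2 genes lie near that share. Of 29 genes of the ATF4 pathway, the arm that answers amino acid and ER stress, *Nupr1* and *Gdf15* were higher. *Gdf15*, a stress-induced hormone, was at 215.7 CPM against 50.21 in iWAT_DFAT and at 371 against 67.21 in eWAT_DFAT. The list median was 0.44 and −0.08, and of 20 ER stress genes 1, *Dnajb9*, was called. Of 18 p53 targets *Mdm2*, *Trp53inp1*, *Eda2r* and *Sesn1* were higher. *Fas* was lower, which as 1 gene lies near the 3.95% of all genes called lower in both DFAT libraries. *Trp53inp1* was at 97.88 CPM against 12.91 in iWAT_DFAT and 149.3 against 10.19 in eWAT_DFAT. Of 20 targets of NRF2, the antioxidant regulator, and metallothioneins, *Gclc*, *Osgin1* and *Sqstm1* were called, with *Gclc* at 906.9 CPM against 124.8 and at 1208 against 125.4. *Gclc* encodes the catalytic subunit that starts glutathione synthesis.

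The signalling lists are read against the same 3.13% of all genes. Of 13 EGF ligands and plasminogen genes, 4 were higher in both DFAT libraries, namely *Areg*, *Ereg*, *Errfi1* and *Plat*. *Ereg*, the ligand epiregulin, was at 429.5 CPM against 107.1 in iWAT_DFAT and at 919.3 against 143.9 in eWAT_DFAT. *Errfi1*, a feedback inhibitor of the EGF receptor, was at 1047 against 254.5 and at 936.3 against 94.77. Of 13 IL-6 family genes other than *Il11* itself, 1 was called, the feedback inhibitor *Socs3* at 75.24 CPM against 36.17 and 67.99 against 8.894. Among 19 TGF-beta ligands and targets, *Ldlrad4* was higher and *Edn1* lower, beside 3.95% of all genes called lower in both DFAT libraries. Counts of 1 gene lie near these shares, and *Edn1* rested on 1 UMI in iWAT_DFAT members. Of 23 NF-kB targets *Nfkbiz*, *Cxcl2* and *Ptgs2* were higher, with *Ptgs2*, which encodes the prostaglandin synthase COX-2, at 1988 CPM against 481.1 and at 2194 against 236.4. Of 23 genes of hypoxia and glycolysis *Slc2a1*, *Pfkp*, *Ndrg1* and *P4ha1* were higher, and *Slc2a1*, the glucose transporter GLUT1, was at 166.5 against 43.3 and at 312.6 against 51.96. *Crem* was the single call among 4 relatives of *Gem* and *Stc1* and cyclic AMP-responsive genes that could be measured.

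Genes of the contractile and adipogenic states followed. Of 18 YAP and SRF targets, *Ankrd1*, *Amotl2* and *Myl9* were lower in both DFAT libraries, beside 3.95% of all genes, and the list median was −0.30 and −0.91. Relative to the median gene the list median was −0.12 and −0.55. Then 2 of the targets were lower and 1 higher, beside 162 and 476 of all 10027 genes. The smooth muscle actin gene *Acta2* was at 281.7 CPM against 474.6 in iWAT_DFAT and at 1061 against 3012 in eWAT_DFAT. None of 20 collagen and matrix genes was called in both DFAT or both SVF libraries, and the list median was 0.22, 0.04 and 0.06 in iWAT_DFAT, iWAT_SVF and eWAT_SVF and below 0.01 in size in eWAT_DFAT. Relative to the median gene, 2 of the 20 were higher in both DFAT libraries. Beside 3.13% of all genes called higher and 3.95% lower, of 15 adipogenic genes *Klf5* and *Ebf2* were higher and *Pparg*, the master regulator of adipocytes, lower, at 14.65 CPM against 47.35 in iWAT_DFAT and 10.35 against 75.1 in eWAT_DFAT. With members chosen by *Hspa1a* and *Hspa1b* alone, the iWAT_DFAT ratios of *Ankrd1*, *Amotl2* and *Pparg* turned to 0.080, 0.10 and 0.61. Of 12 nuclear RNAs and splicing genes, *Malat1* alone was called, beside the same 3.13%, at a log2 ratio of 1.17 and 1.71.

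**Figure D4:**
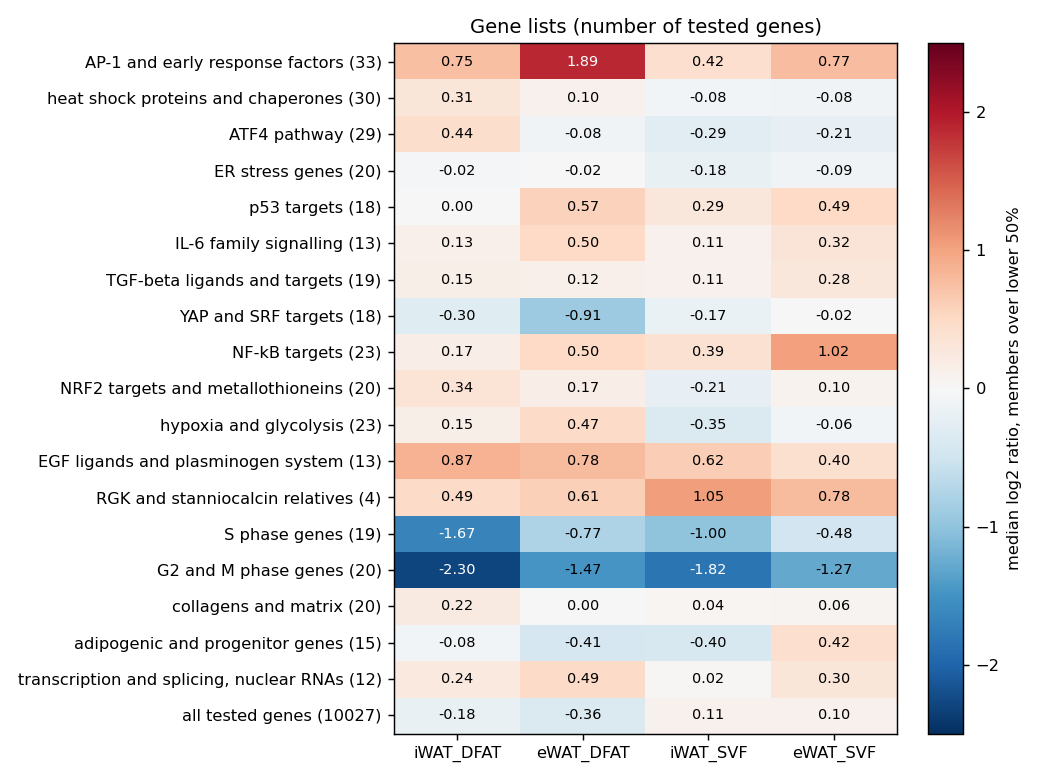
Heat map of the median log2 ratio of members over the lower 50% for each of 18 gene lists and for all 10027 genes (rows, with the number of genes compared) in each library (columns). The G2 and M list is lowest, from −2.30 to −1.27, and the early response list of eWAT_DFAT has the highest value, 1.89.

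In the SVF members the lists gave few calls in both libraries, beside the 1.67% of all genes called higher. The NF-kB targets differed between the libraries, with a list median of 1.02 in eWAT_SVF, where 12 of 23 were 2-fold higher beside 4.4% of all genes, and of 0.39 in iWAT_SVF, where 2 were beside 6.88%, which is near the share of all genes. In iWAT_DFAT and eWAT_DFAT their median was 0.17 and 0.50. *Fosb* and *Jun* of the early response genes, *Icam1* and *Saa3* of the NF-kB targets, *Tgfbi* and *Edn1* of the TGF-beta list, *Hbegf* of the EGF list and *Zfp423* and *Cd36* of the adipogenic list were higher. Once cells of other types were removed before the choice, *Fosb* alone of these stayed called in both SVF libraries. The log2 ratios in iWAT_SVF and eWAT_SVF were then 0.78 and 1.21 for *Jun*, 0.75 and 0.21 for *Icam1* and 0.26 and 0.63 for *Hbegf*. The 12 leading genes were *Igfbp5*, *Mecom*, *Cd36*, *Angpt2*, *Egfl7*, *Csmd1*, *Slpi*, *Saa3*, *Tgfbi*, *Emcn*, *S1pr1* and *Cdh13*. *Emcn*, *Egfl7* and *S1pr1* are known from endothelium, and *Slpi* and *Saa3* are secreted proteins of epithelial and inflamed tissue. *Emcn* was at 163.5 CPM against 11.77 in iWAT_SVF and at 83.17 against 14.67 in eWAT_SVF. *Csmd1* was at 1225 CPM against 15.7 in iWAT_SVF, and its 11 UMIs in eWAT_SVF members came from 1 cell, as did all of the *Saa3* UMIs in iWAT_SVF. The iWAT_SVF file names another version of the counting software, and whether its introns were counted as in the other libraries was not tested. With cells of other types removed first, 29 genes (0.292%) were higher in both SVF libraries, and *Igfbp5* and *Csmd1* alone of the 12 stayed called, in eWAT_SVF on 3 and 13 UMIs from 2 members each. *Csmd1* in iWAT_SVF was then at 16.96 CPM against 2.56, from 25 UMIs in 4 of 70 members. The ratios of *Mecom*, *Angpt2* and *Emcn* in eWAT_SVF then turned to −1.16, −0.69 and −0.69, and those of *Cd36*, *Egfl7* and *Saa3* in iWAT_SVF to −0.21, −0.13 and −0.18.

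Within the DFAT members, levels of accompanying genes varied between cells led by different genes of the 6. *Akr1b3* was at 1502 CPM in the 21 *Il11*-led, 2398 in the 21 *Stc1*-led and 2263 in the 24 *Gem*-led members of iWAT_DFAT, and at 3207 in the 34 *Il11*-led and 6754 in the 13 *Gem*-led members of eWAT_DFAT. All lay well above the 86.85 and 79.12 CPM of the lower 50%. *Igfbp5* was at 668 CPM in *Il11*-led and 47.1 in *Gem*-led members of iWAT_DFAT and at 886 and 74.8 in eWAT_DFAT. Its UMIs lay in 28.57% of the *Il11*-led and 20.83% of the *Gem*-led members of iWAT_DFAT, and in 67.65% and 53.85% of those of eWAT_DFAT, so in iWAT_DFAT a few cells carried the level. *Nupr1* was at 353 CPM in *Il11*-led and 1045 in *Gem*-led members of iWAT_DFAT and at 932 and 4767 in eWAT_DFAT. *Hspa4l* was at 259 and 313 CPM in *Il11*-led and *Gem*-led members of iWAT_DFAT and at 716 and 1264 in eWAT_DFAT. *Ccna2* stayed at or under 15.6 CPM in each of these groups. The groups hold 13 to 34 cells of 1 library each, so these values are descriptions.

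Levels were also read over the whole ranking. In eWAT_DFAT, *Akr1b3* was at 79.12 CPM in the lower 50%, 76.46 in the cells from 50 to 90%, 236.3 from 90 to 99% and 4374 in the top 1%. In iWAT_DFAT the steps of *Akr1b3* were 86.85, 87.46, 132.9 and 2185 CPM, and those of *Nupr1* 115.5, 127, 201.1 and 916.9. The increase of both thus lay largely in the last 1%. *Fosb* went from 160.4 to 203, 278.4 and 316.3 CPM in iWAT_DFAT, but from 12.68 to 15.79, 33.01 and 324.4 in eWAT_DFAT, where most of its increase also lay in the top 1%. *Ccna2* went from 50.34 to 36.46, 22.7 and 5.327 CPM in iWAT_DFAT and from 40.3 to 30.31, 23.88 and 10.3 in eWAT_SVF. In iWAT_SVF, *Akr1b3* stayed between 68.44 and 81.6 CPM over all 4 ranks.

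**Figure D5:**
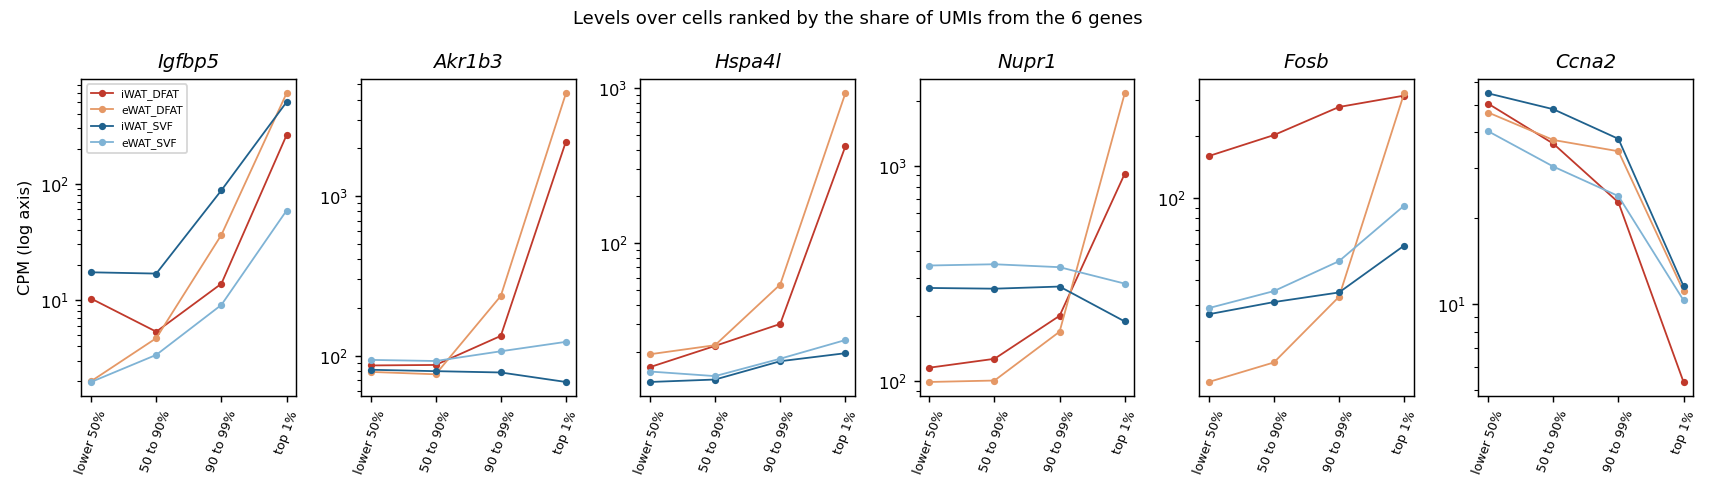
Levels in CPM (log axis, a scale of its own in each panel) of 6 genes in cells ranked by the 6-gene share (lower 50%, 50 to 90%, 90 to 99% and top 1%), 1 line per library. *Akr1b3* climbs in the DFAT libraries at the top 1%, to 2185 and 4374 CPM, and stays at 68.44 to 122 in the SVF libraries, while *Ccna2* declines in steps.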

How the data were processed

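Droplet-based single-cell RNA sequencing was run by the authors on 4 libraries of cultured mouse cells, 1 per condition, with 3′ chemistry. The authors counted UMIs with Cell Ranger against mm10, by their methods with introns included, and deposited these counts for every barcode, ahead of CellBender, cell filters and normalization. The submitters' notes name version 7.0.0, while the file headers name 7.1.0 for 3 libraries and 4 for iWAT_SVF. Whether introns were counted alike in iWAT_SVF was not tested, which touches its CPM beside those of other libraries, *Csmd1*, *Sntb1* and *Dmd* included. The matrices held 32285 genes and 211396227 to 242282812 UMIs.

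Cells were kept with 5000 to 75000 UMIs, 200 to 7500 genes and under 10% mitochondrial UMIs. Members were the top 1% of a library by the UMIs of the 6 genes over all UMIs, and ties were broken by file order. UMIs were summed over members and over the lower 50% and scaled to 1000000 (CPM). Genes at 5 CPM or more over the kept cells (mean of 4 libraries) were compared as log2(CPM + 1) and called at 2-fold in each library. They were not tested, since members were chosen on values of the same cells and each condition has 1 library. CPM carry exact 95% Poisson intervals and shares Clopper-Pearson intervals, for counting error only. Doublet scores came from Scrublet in scanpy 1.11.5, whose highest 0.8% per 1000 cells were removed in an alternative (2, 0, 0 and 2 members). Free RNA was read from droplets with at most 100 UMIs. The calculation of the calls was also run on simulated Poisson counts with known changes, drawn from the summed lower 50%. Those counts held no choice of cells and no variation between cells, so they do not check calls in cells chosen by the rule. Sums and intervals were computed in scipy 1.17.1 and pandas 2.3.3, run with numpy 2.4.6 under Python 3.11.15, and figures in matplotlib 3.10.9.

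Members and lists were chosen with earlier results of these data known. Named genes are the 6 of the rule, the 12 tested genes with the largest ratio in each direction in the library where it was smallest (for all 4, both DFAT and both SVF libraries), up to 4 of each of 18 lists, list genes called in both libraries of a kind, and cell type markers. Promoters and their starts are from RefSeq (GRCm38.p6).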

Additional observations from a re-analysis of the deposited data

Results flagged for a closer look

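Of the 10027 genes compared, 3 were called in opposite directions in the kinds of culture, at least 2-fold lower in the members of both DFAT libraries and at least 2-fold higher in those of both SVF libraries, and the difference was not tested. For *Edn1*, which encodes the vasoconstrictor endothelin 1 and is made by endothelium, the mean log2 ratio of the DFAT libraries minus that of the SVF libraries was −4.09. The ratios were −1.45 and −2.43 in iWAT_DFAT and eWAT_DFAT and 3.11 and 1.17 in iWAT_SVF and eWAT_SVF, from 1, 3, 118 and 97 UMIs in members. At 1 and 3 UMIs the counting intervals of the DFAT log2 ratios reached from −7.73 to 0.07 and from −5.16 to −1.33. Members with endothelial markers held 1509 CPM of *Edn1* in iWAT_SVF and 829.6 in eWAT_SVF.

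*Sntb1*, a syntrophin that binds the dystrophin complex, gave a difference of −4.79. Its log2 ratios were −1.30, −1.64, 5.201 and 1.44, from 4, 2, 262 and 10 UMIs, and the interval at 2 UMIs reached from −5.24 to −0.33. In iWAT_SVF the members with Schwann markers held 721.5 CPM. *Dmd*, the dystrophin gene, gave a difference of −2.69 from 2, 8, 198 and 121 UMIs, with ratios of −1.08, −2.00, 1.14 and 1.15. The interval at 2 UMIs reached from −4.62 to 0.30. With cells of other types removed before the choice, the ratios in iWAT_DFAT, eWAT_DFAT, iWAT_SVF and eWAT_SVF were −1.11, −1.67, 0.61 and 0.25 for *Edn1*, −1.48, −2.20, 1.36 and −0.65 for *Sntb1* and −0.98, −1.80, 0.78 and 0.98 for *Dmd*. The part of other cell types in these differences was not tested further. The ratios are of log2(CPM + 1), while the intervals are those of the CPM ratio itself, with nothing added, and cover counting error only.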

How the results depend on the processing

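The counts of called genes moved with most settings, while the 12 leading DFAT genes, picked for their size in the same cells, stayed called where tested. Beside 26 higher and 55 lower genes in all 4 libraries, 314 and 396 in both DFAT and 167 and 83 in both SVF libraries, these counts moved by over 1.5 times. Taking the top 2% gave 16 and 13 in all 4, 159 and 40 in DFAT and 40 lower in SVF, and the top 0.5% gave 49 higher in all 4, 1234 lower in DFAT and 313 higher in SVF. All other kept cells as the comparison gave 16 higher in all 4, and UMI-matched cells gave 22 lower in all 4 and 37 lower in SVF. Choosing on part of the UMIs and reading the rest gave 15 and 34 in all 4. A score without the HSP70 genes gave 4 lower in all 4 and 21 lower in SVF, and the HSP70 genes alone gave 3 and 8 in all 4 and 9 and 20 in SVF. A rank-based cell call gave 111 higher in SVF. A minimum of 20 CPM gave 5 higher in all 4, 163 and 192 in DFAT and 47 and 50 in SVF, by construction since fewer genes are tested, and 1 CPM gave 50 higher in all 4, 479 in DFAT and 342 in SVF. A pseudocount of 5 CPM gave 9 and 26 in all 4, 138 lower in DFAT and 76 and 34 in SVF. Removing cells with 3 markers of another type gave 7 and 97 in all 4 and 29 higher in SVF, and members with 3 or more of the 6 genes gave 647 lower in DFAT and 185 lower in SVF. A call at a log2 ratio of 0.5 gave 213 and 206 in all 4, 774 and 1988 in DFAT and 988 and 312 in SVF, and centring on the median gene gave 476 and 162 in DFAT. Centring, removal of other cell types and the choice of members with 3 genes were added after seeing the data. A lower limit can only add calls and a larger pseudocount can only shrink ratios, so these moves, like that of the minimum CPM, come by construction. The cause of the other moves was not tested.

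Each condition has 1 library, so leaving 1 out leaves the calls to the others. In all 4 libraries the counts ranged from 45 to 61 higher and from 60 to 114 lower, with 45 higher without iWAT_DFAT, 59 without eWAT_DFAT or eWAT_SVF, 61 without iWAT_SVF and 114 lower without eWAT_SVF. For DFAT they were 700 and 1666 without iWAT_DFAT and 515 and 801 without eWAT_DFAT, and for SVF 441 and 188 without iWAT_SVF and 690 and 332 without eWAT_SVF. Of 5796 log2 ratios of called genes in single libraries, 82 of 39 genes changed sign, 11 in DFAT and 71 in SVF libraries, and a further 606 moved by more than the spread between libraries. With other cell types removed, these were in eWAT_DFAT *Cfd* 0.73, and in eWAT_SVF *Angpt2* −0.69, *Cdh5* −0.29, *Elmo1* −1.005, *Emcn* −0.69, *Mecom* −1.16, *Pde10a* −0.39, *Procr* −0.34 and *Sntb1* −0.65, and in iWAT_SVF *Cd36* −0.21, *Cdh5* −0.67, *Egfl7* −0.13 and *Saa3* −0.18. With choice and reading on separate UMIs, these were in eWAT_SVF *Kif23* 0.26, and in iWAT_SVF *Saa3* −0.20. With members of 3 or more genes, these were in eWAT_SVF *Cd36* −1.38, *Emcn* −0.23, *Mecom* −0.93 and *Mmp3* −0.26, and in iWAT_SVF *Cd36* −0.74, *Cdh5* −1.58, *Edn1* −3.61, *Egfl7* −3.16, *Emcn* −3.67, *Fbxo2* −0.89, *Jun* −0.17, *Mecom* −0.36, *S1pr1* −1.97, *Saa3* −0.18, *Sntb1* −2.67 and *Tgfbi* −2.26. Under 5% mitochondrial UMIs, these were in iWAT_SVF *Saa3* −0.18. With the HSP70 score, these were in eWAT_SVF *Angpt2* −2.82, *Cd36* −2.51, *Cdh13* −0.42, *Cdh5* −1.18, *Egfl7* −2.497, *Elmo1* −2.61, *Emcn* −4.59, *Mecom* −3.52, *Pde10a* −0.39 and *S1pr1* −1.09, and in iWAT_DFAT *Amotl2* 0.10, *Ankrd1* 0.080, *Fas* 0.078 and *Pparg* 0.61, and in iWAT_SVF *Angpt2* −0.29, *Cd36* −0.49, *Cd55* −0.91, *Cdh13* −0.75, *Cdh5* −2.35, *Csmd1* −3.01, *Egfl7* −1.80, *Emcn* −4.20, *Epha2* −0.25, *Fosb* −0.10, *Hbegf* −0.14, *Igfbp5* −0.84, *Kif14* 0.37, *Mecom* −1.05, *Nusap1* 0.0016, *Pde10a* −0.54, *Procr* −0.53, *S1pr1* −0.41, *Saa3* −0.20, *Sgo2a* 0.10, *Slpi* −0.22, *Sntb1* −0.42 and *Tgfbi* −2.44. With the score of the other 4 genes, these were in eWAT_SVF *Kif11* 0.14, *Kif14* 0.29, *Kif23* 0.16 and *Mki67* 0.23, and in iWAT_DFAT *Car3* 3.11. In the top 0.5%, these were in eWAT_DFAT *Osgin1* −0.24 and *Pi16* −0.56, and in eWAT_SVF *Csmd1* −0.64, and in iWAT_SVF *Fosb* −0.22 and *Slpi* −1.16. In the top 2%, these were in iWAT_DFAT *Car3* 2.17, *Edn1* 0.14 and *Pparg* 0.25. The cause of these turns was not tested. Of the list medians 132 moved and 1164 stayed within the spread set for them, and of the named genes 182 and 3490. Between the conditions no paired analysis was made. DFAT and SVF libraries could be paired by depot, which would give 1 pair per depot. Members and the lower 50% were paired within each library, and no test was made of these pairs, since the members were chosen on values of the same cells. At 65 to 76 members a library, genes with few UMIs rest on single cells, and a median of 5 or 6 UMIs of the 6 genes limits the choice of SVF members.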

Other observations

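Once cells with 3 markers of another type had been removed and the members chosen again, 29 genes were higher in both SVF libraries (0.292% of those compared). The genes given here were picked after their values had been seen. *Sfrp2*, a secreted Wnt modulator of fibroblasts, was at 9.496 CPM in members against 2.371 in iWAT_SVF and at 37.78 against 6.735 in eWAT_SVF, from 14 UMIs in 9 of 70 members and 43 in 8 of 52. *Lum*, a small matrix proteoglycan, was at 11.53 against 4.046 and at 45.69 against 20.76, from 17 UMIs in 7 members and 52 in 17, and *Apoe*, a lipid carrier, at 42.73 against 6.948 and at 45.69 against 18.28. The complement inhibitor gene *Serping1* was at 76.64 against 36.85 and at 217 against 100.6. *Fos* was at 220.4 against 105.8 and at 386.6 against 183.5, and *Ptgs2* at 109.2 against 53.06 and at 52.72 against 24.9, the latter in 10 of 52 members. *Ptgs2* and *Fosb* were then higher in the members of all 4 libraries, at smallest log2 ratios of 1.027 and 1.012, close to the limit of 1.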
